A study of Mus musculus with 6 samples.

Results

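The blood vessels of the cochlear duct were followed through 10 genes, 8 that mark endothelial cells (Pecam1, Kdr, Flt1, Tek, Tie1, Eng, Abcb1a and Mfsd2a) and 2 that mark mural cells (Pdgfrb and Rgs5). They were chosen by name as known markers of these cell types, at a time when earlier results of these data were known. All 10 were found among the 14865 genes of the deposited expression table. All 10 were also among the 14455 genes tested, those that reached 40 normalized reads in 1 library or more. RNA came from cochlear ducts of C57BL/6 mice at postnatal day 8 with no treatment, in 3 libraries of Gfi1+/+ mice and 3 libraries of Gfi1cre/+ mice. In Gfi1cre/+ mice part of 1 copy of Gfi1, a transcription factor of hair cells and blood cells, is replaced by the coding sequence of Cre recombinase. Cre activity in this line is not limited to hair cells and was also described in macrophages of the inner ear, and the libraries were made from whole ducts without sorting. Each Gfi1+/+ library held the RNA of 2 cochleae from 1 mouse, while each Gfi1cre/+ library pooled 6 cochleae from 3 mice, so that differences between mice are partly averaged in 1 genotype only. The question asked of these genes was whether the vascular part of the tissue differed between the genotypes.

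Endothelial cells line the blood vessels, and mural cells (pericytes on capillaries, smooth muscle on larger vessels) wrap around them. Endothelial cells sense vascular endothelial growth factors and angiopoietins through receptor tyrosine kinases, and they recruit mural cells by releasing platelet-derived growth factor B, which the mural cells sense through its beta receptor. In the cochlea the capillaries of the stria vascularis form a blood-labyrinth barrier that resembles the blood-brain barrier, with tight junctions, efflux pumps and a dense cover of pericytes.

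The libraries held 13603908 to 19359753 reads counted to genes. Gfi1+/+ replicate 1 stood apart from the others: it lay at -44.0 on the first principal component, which held 54.3% of the variance, while the other 5 libraries lay between -0.304 and 16.2. Its 7 neuron markers summed to 8809 normalized reads, against 1633 to 3249 in the other 5 libraries. The fold changes and calls of the 10 genes are therefore given with and without that library. So are the counts above and below 0 and the medians of the lists of further vascular genes. Xist, the RNA that coats the inactive X chromosome of females, lay between 7338 and 8138 normalized reads in the Gfi1+/+ libraries and between 2301 and 5359 in the Gfi1cre/+ libraries, so that genotype and the sex of the mice cannot be told apart in any comparison. Gfi1 itself was at 147, 160.2 and 152 normalized reads in Gfi1+/+ and at 136, 129.6 and 139 in Gfi1cre/+, a log2 fold change of -0.18 with an adjusted p of 0.999 (limma, Benjamini-Hochberg). The libraries of the genotypes did not overlap for Gfi1, with the lower values in Gfi1cre/+, and the log2 fold change was -0.21 without Gfi1+/+ replicate 1. The difference did not pass the test, so it is only a weak check of the labels. The paper also reported no significant fall of Gfi1 in its RNA-seq. It found this unsurprising, because the part of the transcript left in place still adds reads to the gene. By RT-qPCR of newborn cochleae, the paper did find significantly less of the exons replaced by Cre, and no change in exons present in both genotypes.

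All 10 genes were well detected, with 357 to 5768 reads per gene and library. To compare genes with each other, levels were expressed as reads per kilobase of exon per 1000000 counted reads. Eng, a co-receptor for bone morphogenetic proteins on endothelial cells that other cells of mesenchymal origin can also carry, had the highest mean level at 66.9 ± 7.85 (SD, n = 6 libraries of both genotypes). Rgs5, a regulator of G protein signalling and a marker of pericytes, was next at 65.6 ± 2.91, and its libraries overlapped those of Eng. Pdgfrb, the receptor for platelet-derived growth factor B, was at 39.9 ± 4.24, below every library of Rgs5. These levels placed Eng above 94.7%, Rgs5 above 94.6% and Pdgfrb above 90.5% of the 14865 genes listed, tested or not.

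The other 7 endothelial genes were lower, and each of their libraries lay below each library of Pdgfrb. Mfsd2a, a lipid transporter of barrier endothelium, was at 11.9 ± 1.13 on this scale. Tie1, an orphan receptor related to Tek, was at 9.26 ± 1.28, Pecam1, an adhesion molecule of endothelial junctions, at 8.67 ± 0.800, and Kdr, the main signalling receptor for vascular endothelial growth factor A, at 7.37 ± 0.877. Tek, the receptor for the angiopoietins, was at 7.21 ± 0.588. From Mfsd2a down to Tek, the libraries of each gene overlapped those of the next gene in the order. Abcb1a, an efflux pump known as P-glycoprotein, lay below Tek without overlap at 5.40 ± 0.435. Flt1, a receptor that binds vascular endothelial growth factors with high affinity and also exists as a soluble decoy, was lowest at 2.87 ± 0.312, again without overlap. The order in the middle depends on the length used: with the longest coding transcript in place of all annotated exons, Pecam1 was at 15.7, Kdr at 11.2 and Flt1 at 5.61, which put Pecam1 above Mfsd2a, while Eng, Rgs5 and Pdgfrb stayed the top of the order and Flt1 the bottom.

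**Figure D1:**
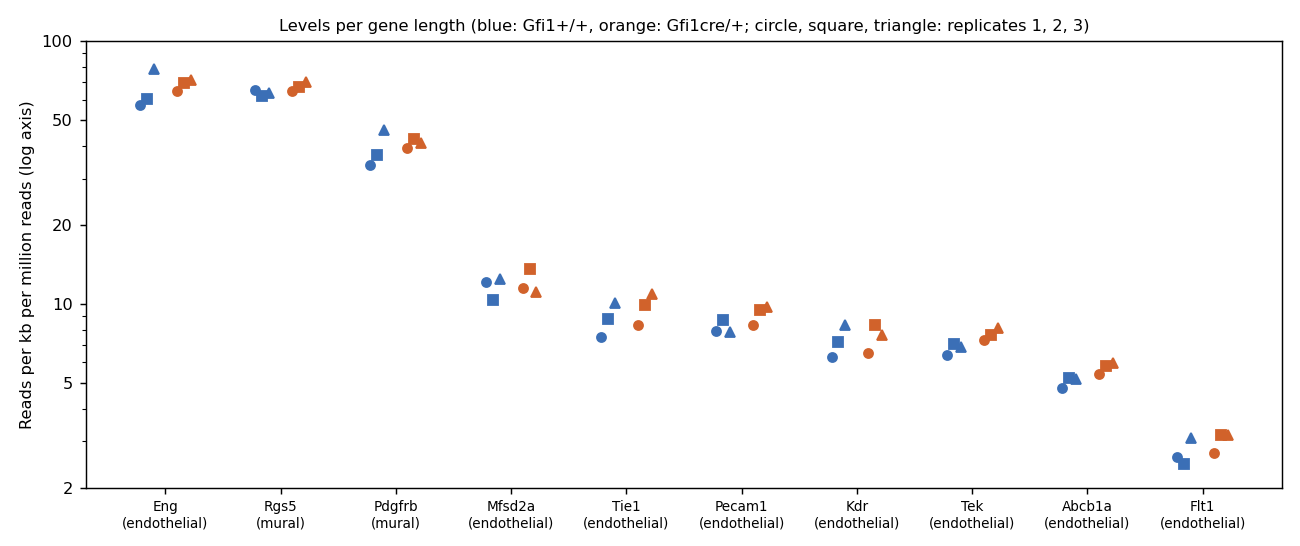
Level of each gene in each of the 6 libraries, in reads per kilobase of exon per 1000000 counted reads on a log axis, ordered by mean level from Eng (66.9) to Flt1 (2.87). Blue points are Gfi1+/+ and orange points Gfi1cre/+ libraries, and the symbol gives the replicate. The 2 mural genes and Eng sit apart from the other 7 endothelial genes.

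The genes lie on several chromosomes of the mouse genome (mm10, GENCODE vM21 coordinates). Tek (chr4:94739289-94874976), Tie1 (chr4:118471191-118490061) and Mfsd2a (chr4:122946850-122961188) share chromosome 4. Abcb1a (chr5:8660077-8748575), Kdr (chr5:75932827-75978458) and Flt1 (chr5:147561604-147726011) share chromosome 5. Rgs5 is at chr1:169655501-169695813, Eng at chr2:32646595-32682669, Pecam1 at chr11:106654217-106750628 and Pdgfrb on another chromosome.

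Upstream sequences of 8 of the 10 genes were at hand in the RefSeq promoter table (GRCm38.p6). Those of Tek, whose libraries separated by genotype in the comparison described further on, and of Eng and Rgs5, the most abundant endothelial and mural gene, are shown as the 250 bases before the gene's start, 5′ to 3′ on the gene's own strand. Capitals mark each AGGAA or its reverse complement TTCCT, letters that hold the core bound by the ETS family of transcription factors, several of which act in endothelial cells.
Tek, plus strand, chr4:94739039-94739288: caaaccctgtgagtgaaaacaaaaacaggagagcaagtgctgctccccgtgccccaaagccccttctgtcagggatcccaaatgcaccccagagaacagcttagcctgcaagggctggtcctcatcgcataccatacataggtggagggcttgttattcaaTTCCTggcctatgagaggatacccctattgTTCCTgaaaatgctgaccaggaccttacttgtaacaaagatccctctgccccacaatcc
Eng, plus strand, chr2:32646345-32646594: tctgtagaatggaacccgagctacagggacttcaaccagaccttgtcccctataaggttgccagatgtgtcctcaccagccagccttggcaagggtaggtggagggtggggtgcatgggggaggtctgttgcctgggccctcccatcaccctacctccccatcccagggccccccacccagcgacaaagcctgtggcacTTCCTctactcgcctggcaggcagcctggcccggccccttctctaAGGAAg
Rgs5, plus strand, chr1:169655251-169655500: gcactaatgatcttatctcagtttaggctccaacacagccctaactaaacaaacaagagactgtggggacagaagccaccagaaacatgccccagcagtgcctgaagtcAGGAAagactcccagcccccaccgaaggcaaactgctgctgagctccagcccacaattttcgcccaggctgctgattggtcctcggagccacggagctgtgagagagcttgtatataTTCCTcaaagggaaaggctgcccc
Each of the 3 sequences held 2 such matches. On either strand, AGGAA was found upstream of 7 of the 8 genes, with 4 matches for Abcb1a, 2 each for Rgs5, Eng, Tek, Tie1 and Flt1, 1 for Mfsd2a and 0 for Kdr. For Abcb1a and Tie1 the RefSeq start differs from that of the GENCODE gene: the Abcb1a window (chr5:8566841-8567090) lies far upstream of the GENCODE gene, and most of the Tie1 window (chr4:118489850-118490099) lies inside it, so their matches are not comparable with the others. The motif is common, since 60.3% of the 32851 promoters of the table held it in the same window, and 7 of 8 is a description only. The letters GGGCGG, bound by Sp1-like factors, were found upstream of Kdr and Flt1, the pair of vascular endothelial growth factor receptors, with 2 and 3 matches, and in 32.7% of all promoters. The AGGAA and GGGCGG letters do not overlap as motifs, and a match was not tested as a binding site.

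Between the genotypes, all 10 genes had a higher mean in Gfi1cre/+, by 3.01% (Kdr) to 13.4% (Tek), and none passed the test across all genes. The adjusted p was 0.999 for each of them (limma on log2 of normalized reads plus 1, Benjamini-Hochberg over 14455 genes). That gives 0 of 10, where 4 of all genes tested, or 0.0277%, passed. Of all genes tested 49.9% had a log2 fold change above 0. At an unadjusted p under 0.05, 3 of the 10 genes were higher, Pecam1, Tek and Abcb1a, against 1.02% of all genes. In 2 of the 10, Tek and Abcb1a, every Gfi1cre/+ library lay above every Gfi1+/+ library, against 3.45% of all genes. Since the genes were chosen with earlier results of these data known, these counts are a description only. In bulk tissue, more endothelial cells and more RNA of a gene per cell cannot be told apart.

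Tek read 507, 551 and 551 normalized reads in Gfi1+/+ replicates 1 to 3 and 579.6, 599 and 645 in Gfi1cre/+ replicates 1 to 3. The genotypes did not overlap, although the highest Gfi1+/+ and the lowest Gfi1cre/+ library were close to each other. The log2 fold change of Tek was 0.18 ± 0.0689 (SE), or 1.13-fold, with an unadjusted p of 0.0277 (limma) and an exact permutation p of 0.1, the smallest that 3 against 3 libraries can give. Abcb1a read 441, 476 and 485 in Gfi1+/+ and 499.6, 533 and 555 in Gfi1cre/+. Its libraries did not overlap either, with a log2 fold change of 0.18 ± 0.0708, 1.13-fold, an unadjusted p of 0.0330 (limma) and an exact permutation p of 0.1. For both genes the spread within a genotype, a coefficient of variation of 4.67% to 5.55%, was about as small as the counting error of their shallowest library, 4.93% for Tek and 5.29% for Abcb1a.

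Pecam1 read 826, 903 and 832 in Gfi1+/+ and 873, 992 and 1025 in Gfi1cre/+. The genotypes overlapped, since Gfi1+/+ replicate 2 lay above Gfi1cre/+ replicate 1. Its log2 fold change was 0.17 ± 0.0745, 1.13-fold, with an unadjusted p of 0.0466 (limma) and an exact permutation p of 0.2. Tie1, the partner of Tek, read 617, 720.3 and 844 in Gfi1+/+ and 692, 815 and 910.5 in Gfi1cre/+. The ranges of the genotypes overlapped, and the log2 fold change was 0.15 ± 0.127.

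The pair of receptors for vascular endothelial growth factor showed no separation. Kdr read 955, 1077 and 1278 in Gfi1+/+ and 987, 1259 and 1165 in Gfi1cre/+, and the highest library of all was a Gfi1+/+ one. Its log2 fold change was 0.05 ± 0.117. Flt1 read 592, 552 and 709 in Gfi1+/+ and 616, 717 and 723 in Gfi1cre/+, with a log2 fold change of 0.15 ± 0.103. Gfi1+/+ replicate 3 lay inside the Gfi1cre/+ range for Flt1.

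Eng read 3894, 4052 and 5423 in Gfi1+/+ and 4407, 4693 and 4891 in Gfi1cre/+. Gfi1+/+ replicate 3 was the highest and the other 2 Gfi1+/+ libraries the lowest, so that the Gfi1cre/+ libraries lay between them, and the log2 fold change was 0.08 ± 0.115. Mfsd2a read 457, 388 and 476 in Gfi1+/+ and 435, 513 and 425 in Gfi1cre/+, mixed in order, with a log2 fold change of 0.06 ± 0.102. The barrier genes Abcb1a and Mfsd2a thus did not share an order of libraries.

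Of the mural genes, Pdgfrb read 3119, 3379 and 4293 in Gfi1+/+ and 3621, 3888 and 3804 in Gfi1cre/+. As for Eng, the Gfi1cre/+ libraries fell between the Gfi1+/+ ones, and the log2 fold change was 0.08 ± 0.106. Rgs5 read 5000.3, 4674 and 4938 in Gfi1+/+ and 4969.6, 5120.1 and 5402 in Gfi1cre/+. Here Gfi1cre/+ replicate 1 lay just under Gfi1+/+ replicate 1, and the log2 fold change was 0.08 ± 0.0573. Rgs5 was the steadiest of the 10 genes in Gfi1+/+, with a coefficient of variation of 3.56%, and Eng the most variable, with 18.9%.

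**Figure D2:**
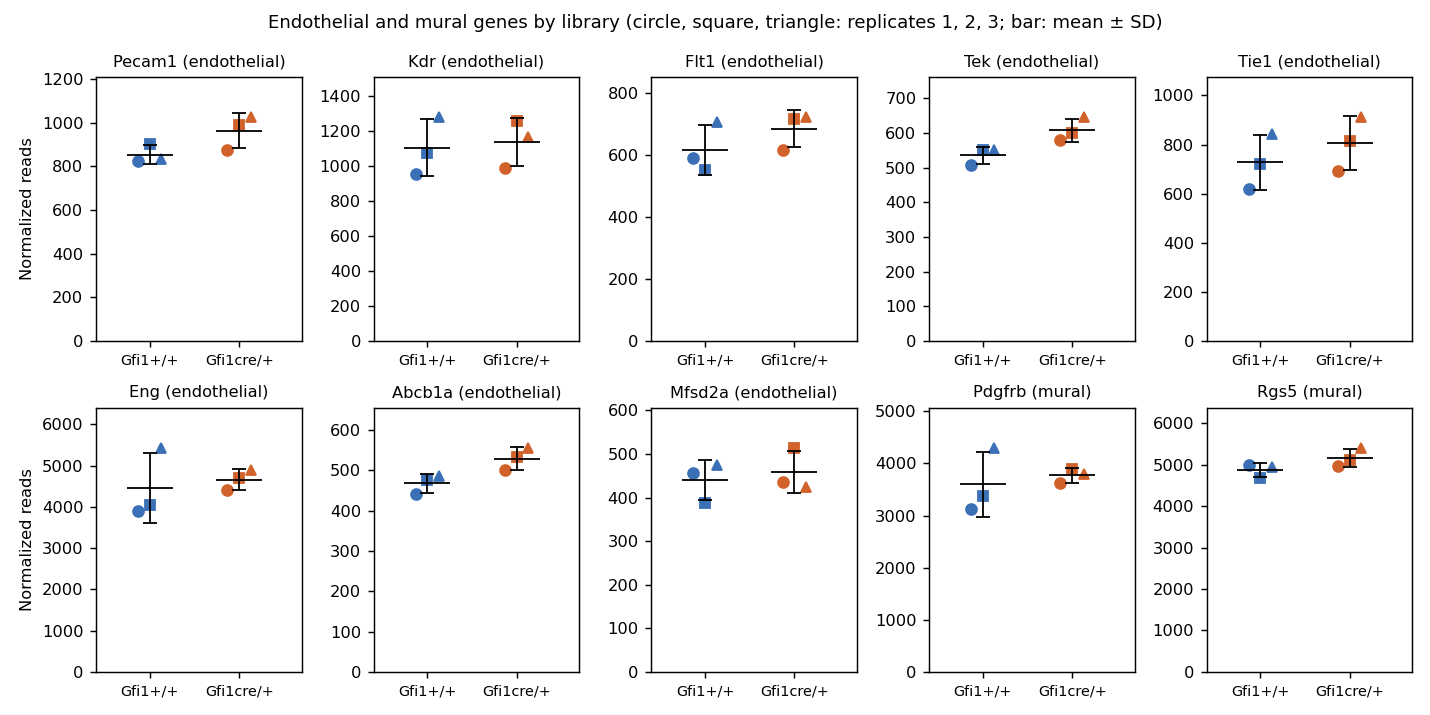
Normalized reads of the 10 genes in each library, with an axis from 0 for each gene. Symbols give replicates 1 to 3 of Gfi1+/+ (blue) and Gfi1cre/+ (orange), and the bars the mean ± SD of 3 libraries. Only Tek and Abcb1a have all orange points above all blue points.

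The 95% confidence intervals bound the size of a difference that these libraries could hold. For Tek the interval ran from 1.02-fold to 1.26-fold, for Abcb1a from 1.01-fold to 1.26-fold and for Pecam1 from 1.002-fold to 1.27-fold. The intervals of the other 7 genes included equal levels. The highest upper bound was 1.35-fold, for Tie1, and the lowest lower bound 0.859-fold, for Kdr. These intervals are not adjusted for the number of genes.

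Without Gfi1+/+ replicate 1 the log2 fold change was lower for 8 of the 10 genes. The log2 fold change became 0.15 for Pecam1, 0.14 for Tek, 0.14 for Abcb1a, 0.13 for Flt1 and 0.04 for Tie1. It changed sign for Kdr (-0.05), Eng (-0.01) and Pdgfrb (-0.01), while Mfsd2a (0.08) and Rgs5 (0.10) had a larger value than with all libraries. In all, 7 of the 10 genes were above 0, where 49.2% of all genes were. At an unadjusted p under 0.05, 0 of 10 genes were higher, against 0.927% of all genes, and each adjusted p was 1.0 (limma, Benjamini-Hochberg). Tek, Abcb1a and Rgs5 did not overlap between the genotypes, 3 of 10 against 7.26% of all genes, a share that is larger because 2 libraries overlap with 3 less often.

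The count models of edgeR and DESeq2, run on the whole reads behind the deposited values, gave the same adjusted count. With edgeR's quasi-likelihood test 0 of 10 genes had an adjusted p under 0.05, against 0.0277% of all genes, and 3 of 10, Pecam1, Tek and Abcb1a, were higher at an unadjusted p under 0.05, against 1.02%. With DESeq2 the counts were 0 of 10 against 0.0692% and 0 of 10 against 0.588%.

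**Figure D3:**
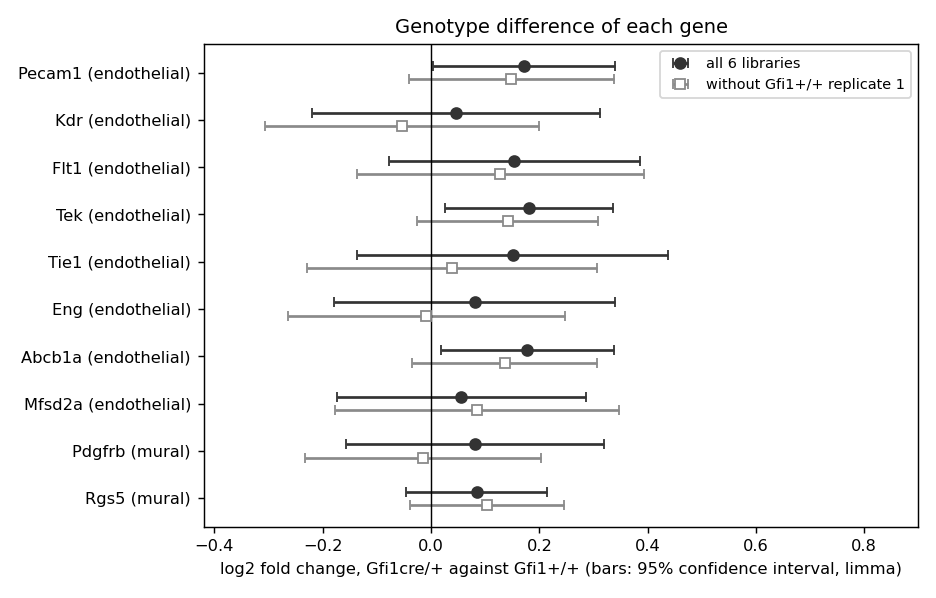
log2 fold change of each gene, Gfi1cre/+ against Gfi1+/+, with its 95% confidence interval from limma. Filled circles use all 6 libraries and open squares leave out Gfi1+/+ replicate 1. All 10 circles lie above 0, and the squares of Kdr, Eng and Pdgfrb lie below it.

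As groups, the 8 endothelial genes had a median log2 fold change of 0.15 and the 2 mural genes of 0.08, a difference of 0.07, while the median of all genes tested was -0.00012. Without Gfi1+/+ replicate 1 the medians were 0.11 and 0.04. The groups moved together from library to library. Averaged over the 8 genes, the endothelial deviation from each gene's mean was -0.16, -0.10 and 0.08 on the log2 scale in Gfi1+/+ replicates 1 to 3 and -0.06, 0.12 and 0.13 in Gfi1cre/+ replicates 1 to 3. The mural deviation was -0.12, -0.11 and 0.10 in Gfi1+/+ and -0.01, 0.06 and 0.08 in Gfi1cre/+. In both groups Gfi1+/+ replicate 3 was higher than Gfi1cre/+ replicate 1, so the genotypes overlapped. The endothelial range within Gfi1+/+, from -0.16 to 0.08, was wider than the median difference between the genotypes.

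Single libraries set much of this pattern. Gfi1+/+ replicate 1 was the lowest of all 6 libraries for 7 of the 10 genes, and Gfi1+/+ replicate 2 for the other 3, Flt1, Mfsd2a and Rgs5. Gfi1cre/+ replicate 3 was the highest of all for 6 genes. Within Gfi1cre/+, replicate 1 was the lowest for 9 of the 10 genes, Mfsd2a being the exception. The median coefficient of variation of the 10 genes was 11.8% in Gfi1+/+ and 6.92% in Gfi1cre/+, where each library pools 3 mice, and that of all genes tested was 8.28% and 5.13%. By gene the 10 had no common direction. The 5 that varied more in Gfi1+/+ were Kdr, Flt1, Tie1, Eng and Pdgfrb. The 5 that varied more in Gfi1cre/+ were Pecam1, Tek, Abcb1a, Mfsd2a and Rgs5. Of the 14455 genes tested, 10281 varied more in Gfi1+/+.

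Markers of other cells in the same libraries moved in other ways. The 7 neuron markers deviated by 1.60 in Gfi1+/+ replicate 1, where the endothelial genes were lowest, and by -0.89 in Gfi1cre/+ replicate 1. All 7 were lower in Gfi1cre/+, with a median log2 fold change of -1.22. Of them 4 had an unadjusted p under 0.05 (limma), against 3.04% of all genes in either direction, and 0 an adjusted one. Without Gfi1+/+ replicate 1 all 7 were still lower, with a median of -0.47, and 1 had an unadjusted p under 0.05, against 2.1%. The 7 red blood cell markers that were listed, of 9, summed to 29477 to 43831 normalized reads in Gfi1+/+ and to 38327 to 66358 in Gfi1cre/+. In Gfi1cre/+ replicate 1 they summed to 59972, while 7 of the 8 endothelial genes had their lowest value of that genotype there. Over the replicates of Gfi1+/+ the red blood cell deviation was -0.80, -0.40 and -0.31, in the same order as the endothelial one, and over those of Gfi1cre/+ it was 1.04, 0.57 and -0.10, in the opposite order. All 7 red blood cell markers were higher in Gfi1cre/+ at an unadjusted p under 0.05 (limma), against 1.02% of all genes. Their median log2 fold change was 0.57, and 0 of the 7 had an adjusted p under 0.05. When Gfi1+/+ replicate 1 was left out, 2 of the 7 were higher at that unadjusted threshold, against 0.927% of all genes. The median was then 0.38. Macrophage markers, 8 of 8 listed, lay between 5409 and 5941 in Gfi1+/+ and between 5306 and 5829 in Gfi1cre/+. The 9 markers of fibroblasts and otic mesenchyme, cells in which Pdgfrb and Eng can also be found, had their lowest sum in Gfi1+/+ replicate 1. It was 182599 there, against 205609 to 214470 in the other 5 libraries. Their mean deviation was also lowest there, at -0.10, but not each of the 9 markers was. The 11 cochlear duct markers ran from 55155 to 59624 in Gfi1+/+ and from 58461 to 60255 in Gfi1cre/+. Of the platelet markers 3 of 7 were listed, at 621 to 667 and 564 to 648, and of the lymphatic endothelium markers 4 of 6, at 443 to 525 and 372 to 485. The part of these cells in the values of the 10 genes was not tested.

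**Figure D4:**
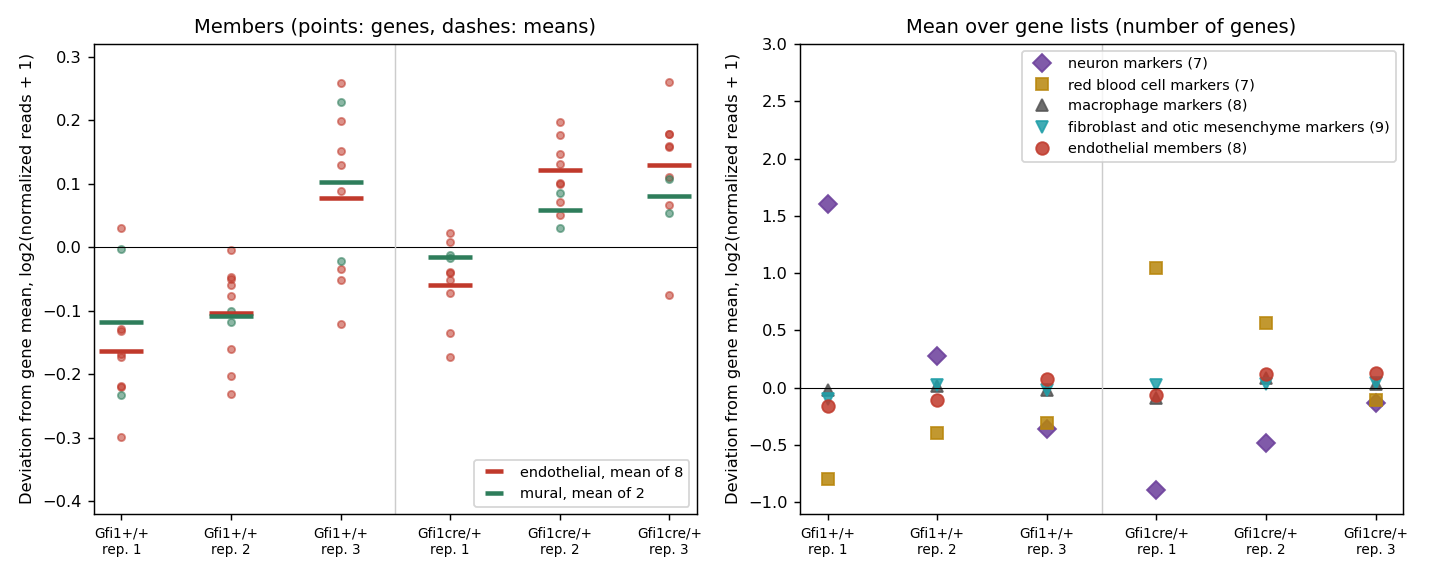
Deviation from the mean of the 6 libraries on log2(normalized reads + 1). The left panel shows the 8 endothelial (red) and 2 mural (green) genes as points with their means as dashes, and the right panel the mean over 4 lists of markers of other cells beside the endothelial mean. Endothelial means run from -0.16 to 0.13, while neuron markers reach 1.60 in Gfi1+/+ replicate 1.

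Ratios between genes with linked roles, taken per length within a library, were used to look at the balance among the 10 genes. Since Eng and Pdgfrb can also be found in fibroblasts and otic mesenchyme, ratios that hold them need not describe vessels alone. Tie1 over Tek ran from 1.17 to 1.47 in Gfi1+/+ and from 1.14 to 1.35 in Gfi1cre/+. Kdr over Flt1, a signalling receptor over one that can act as a decoy, ran from 2.41 to 2.92 and from 2.40 to 2.62. Rgs5 over Pdgfrb ran from 1.39 to 1.93 and from 1.59 to 1.71. All 3 ratios overlapped between the genotypes. Without Gfi1+/+ replicate 1, Kdr over Flt1 did not, at 2.70 and 2.92 in Gfi1+/+ against 2.40 to 2.62 in Gfi1cre/+, while the other 2 ratios still overlapped. Eng over Pecam1 was 10.02 in Gfi1+/+ replicate 3 and 6.91 to 7.77 in the other 5 libraries, so Eng stood higher against Pecam1 in that library than in the rest. The summed mural level over the summed endothelial level was 0.892 ± 0.0599 in Gfi1+/+ and 0.880 ± 0.0248 in Gfi1cre/+ (SD, n = 3 each), and without Eng 2.04 ± 0.0516 and 1.98 ± 0.0944. With Eng the genotypes differed by less than the SD of either one, and without Eng their libraries overlapped.

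The wider vascular programme was described through lists of further genes. Of 32 other endothelial genes, all listed and tested, 27 had a log2 fold change above 0 and 5 below, with a median of 0.05. Without Gfi1+/+ replicate 1 the split was 17 to 15 and the median 0.02, close to the 49.2% of all genes. None of the 32 passed the adjusted test, and 1, Tal1, a transcription factor of blood and endothelial precursors, had an unadjusted p under 0.05 (limma), where 3.04% of all genes had one in either direction, so 1 of 32 is near the background. Tal1 was at 40.7, 53.4 and 60.1 normalized reads in Gfi1+/+ and at 89.6, 68.4 and 70.8 in Gfi1cre/+, a log2 fold change of 0.57 (0.41 without Gfi1+/+ replicate 1, at an unadjusted p of 0.0522 in limma), and it was highest in Gfi1cre/+ replicate 1, where red blood cell markers deviated by 1.04. Its level was low, with 33 to 103 reads per library. The 3 genes of this list with the most reads had log2 fold changes of -0.09 for Emcn, a sialomucin of capillaries and veins, 0.05 for Cd34, a sialomucin also found on other progenitor cells, and 0.16 for Cdh5, the cadherin of endothelial junctions. After their values were seen, Ly6c1 was also picked out, since it was the 1 gene of the list with an unadjusted p under 0.05 (limma) without Gfi1+/+ replicate 1, where 2.1% of all genes had one in either direction. Its log2 fold change was 0.23 there, 0.11 with all libraries and 0.03 without Gfi1+/+ replicate 2.

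Further barrier genes gave no common direction. Of 16, 15 were listed, and 7 had a log2 fold change above 0 and 8 below, with a median of -0.01, or 6 and 9 with a median of -0.01 without Gfi1+/+ replicate 1. The 3 with the most reads were Slco1c1, a thyroxine transporter (0.11), Gpr124, a receptor needed for vessel growth into the brain (0.03), and Slc2a1, the glucose transporter of barrier endothelium (-0.04). Per length they were at 84.1, 44.2 and 61.0, above Pecam1 at 8.67, and which cells carried them was not tested. Of 19 other mural genes 18 were listed, with 11 above 0 and 7 below and a median of 0.05, or 10 and 8 with a median of 0.03 without Gfi1+/+ replicate 1. Among them were Rgs4, a relative of Rgs5 (0.10, and 0.01 without Gfi1+/+ replicate 2), Heyl, a Notch target of mural cells (0.09), and Mcam, an adhesion molecule of pericytes and endothelium (-0.03). No gene of either list had an unadjusted p under 0.05 (limma), where 3.04% of all genes had one in either direction. With lists this short, 0 is near that share.

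Ligands and co-receptors that act on the 10 genes' pathways were also measured. Of 24, 22 were listed, with 15 above 0 and 7 below and a median of 0.05, while without Gfi1+/+ replicate 1 the split was 6 to 16 and the median -0.04. None had an unadjusted p under 0.05 (limma), against 3.04% of all genes in either direction, so 0 of 22 is near the background. The 3 with the most reads were Tgfbr2, a receptor for transforming growth factor beta (0.10, and 0.01 without Gfi1+/+ replicate 1), Bmp6, a bone morphogenetic protein (0.10, and 0.04 without Gfi1+/+ replicate 2), and Notch1 (0.07, and -0.03 without Gfi1+/+ replicate 1). Vegfa, the ligand of Kdr and Flt1, was at 1819, 1879 and 2224 normalized reads in Gfi1+/+ and at 2049, 1876 and 1978 in Gfi1cre/+, a log2 fold change that rounds to 0.00. The ligands of Tek were low: Angpt1, its activator, ran from 97.0 to 179 in Gfi1+/+ and from 105 to 155 in Gfi1cre/+, and Angpt2, which can oppose it, from 46.9 to 74.9 and from 56.6 to 79.9. Pdgfb, the ligand of Pdgfrb, was at 467, 625 and 477 in Gfi1+/+ and at 538, 490.0 and 572 in Gfi1cre/+. For each of these 4 ligands, picked as partners of the 10 genes, the genotypes overlapped. Ndp, which encodes norrin, a ligand that maintains barrier vessels of the ear and eye, was picked out after its values were seen. It was the 1 gene of the list with an unadjusted p under 0.05 (limma) without Gfi1+/+ replicate 1. In either direction, 2.1% of all genes had one there. The log2 fold change of Ndp was 0.25 there and 0.18 with all libraries. Ndp lies on the X chromosome, and genotype and sex cannot be told apart in these libraries.

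**Figure D5:**
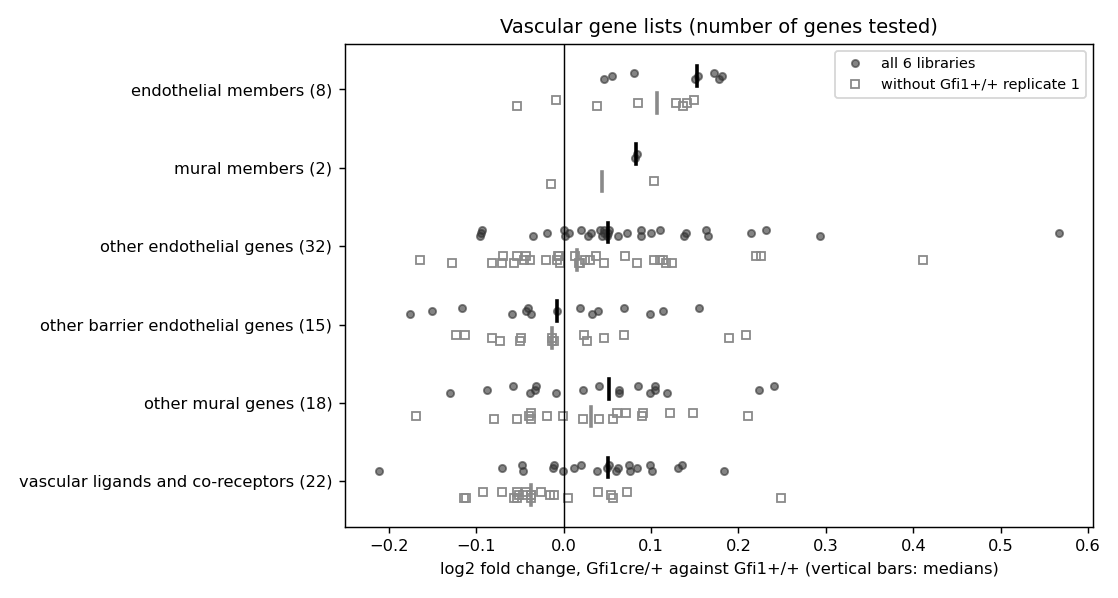
log2 fold change of each gene tested on 6 vascular lists, Gfi1cre/+ against Gfi1+/+, with all 6 libraries (filled) and without Gfi1+/+ replicate 1 (open). Vertical bars are medians, which run from -0.01 (other barrier genes) to 0.15 (the 8 endothelial genes) with all libraries.

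The genes whose profile over the 6 libraries was most like the mean endothelial profile were Ankrd50, Adamts17, Sf3b4, Csrp2bp and 2310022A10Rik, at a root mean square distance of 0.0142 to 0.0237 on the log2 scale, where the median of 13912 genes was 0.148. Those nearest to the mean mural profile were Tha1, Wdtc1, Urgcp and 2310047M10Rik, at 0.00944 to 0.0132 against a median of 0.128. None of these 9 genes was on a vascular or marker list. The 8 endothelial genes themselves lay at 0.0584 (Abcb1a) to 0.126 (Mfsd2a) from their own mean profile, with a median of 0.0847. They make up that profile, so their closeness to it is built in. The 32 other endothelial genes lay at a median distance of 0.116, the 18 other mural genes at 0.116 and the 15 other barrier genes at 0.123. The 22 vascular ligands and co-receptors, at 0.114, were as near. Macrophage markers lay at 0.144, cochlear duct markers at 0.148 and all genes tested at 0.151. The 9 fibroblast and mesenchyme markers lay at 0.171, platelet markers at 0.199, lymphatic markers at 0.304, red blood cell markers at 0.411 and the 7 neuron markers at 1.0. With 6 libraries and differences this small, genes of unrelated roles can come closest, and the distance is a description of these libraries.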

How the data were processed

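RNA of P8 cochlear ducts was sequenced for 3 Gfi1+/+ and 3 Gfi1cre/+ libraries, prepared with the TruSeq RNA kit. Per the submitters' processing notes, reads were aligned to mm10 with TopHat and counted with HTSeq, and the study's methods name quantile normalization for expression levels and DEseq for the test of expression. The deposited signal is 1 normalized value per gene and library, found here to be whole counts divided by the library's size factor (0.810 to 1.15): multiplied back, 100% of the values in each library came out within 0.005 normalized reads of a whole count. 3 reads correspond to 2.61 to 3.70 normalized reads. The 10 genes and all gene lists were chosen with earlier results of these data known.

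Values were analysed as log2(normalized reads + 1), so that fold changes of low genes are understated, for genes that reached 40 normalized reads in 1 library or more. limma 3.58.1 (R 4.3.3, trended variances) was fitted to genotype over all 6 libraries, two-sided, with Benjamini-Hochberg adjustment over all genes tested, and single genes were also given a two-sided exact permutation test of the difference in means over libraries. Replicates were described as independent biological samples. edgeR 4.0.16 (quasi-likelihood) and DESeq2 1.42.0 were run on the recovered reads as alternatives, beside other pseudocounts, filters, scalings, weights, a replicate block and each library left out. The scripts were tested on simulated data. Levels per length used merged exons of GENCODE vM21, matched for 14791 of 14865 genes. Counting error is the Poisson error of the smallest read count of a gene. Named beside the 10 genes were, per vascular list, genes with an unadjusted p under 0.05 (at most 4) and the 3 with the most reads, the 5 nearest genes to each profile (1 of them is not reported here), and Xist and Gfi1; lists of other cell types are given as sums.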

Additional observations from a re-analysis of the deposited data

How the results depend on the processing

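The adjusted count stayed at 0 of 10 genes under all 17 alternatives, and the median log2 fold change of the 8 endothelial genes stayed above 0, from 0.11 to 0.22, as did that of the 2 mural genes, from 0.04 to 0.15, and their difference, from 0.04 to 0.11. The number of the 10 genes with an unadjusted p under 0.05 was 3 with limma, 5 with array weights (limma) and 0 with DESeq2, and it ranged from 0 to 6 when 1 library was left out: 0 without Gfi1+/+ replicate 1, Gfi1cre/+ replicate 2 or Gfi1cre/+ replicate 3, and 6 without Gfi1+/+ replicate 3. Libraries with the same replicate number did not deviate together (correlations of -0.0944, 0.107 and -0.0326). Whether they share more than a number is not stated, and these correlations cannot settle it. With the replicate block the adjusted count was 0, the unadjusted count 4 and the endothelial median 0.15.

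The range when 1 library was left out included both signs for the following log2 fold changes: -0.053 (without Gfi1+/+ replicate 1) to 0.157 (without Gfi1+/+ replicate 3) for Kdr, -0.0087 to 0.230 for Eng and -0.015 to 0.216 for Pdgfrb between the same exclusions, and -0.032 (without Gfi1+/+ replicate 2) to 0.114 for Mfsd2a. For the other named genes it was -0.018 to 0.193 for Slco1c1, -0.013 to 0.074 for Gpr124, -0.020 to 0.205 for Heyl, -0.091 to 0.021 for Mcam, -0.026 to 0.129 for Notch1, -0.056 to 0.088 for Vegfa, -0.070 to 0.277 for Angpt2 and -0.037 to 0.174 for Pdgfb. Leaving out 1 library also took Tgfbr2 from 0.10 to as low as 0.0050, Bmp6 from 0.10 to 0.040, Rgs4 from 0.10 to 0.0092, Ly6c1 from 0.11 to 0.027, Ndp from 0.18 to 0.087, Cd34 from 0.05 to 0.0070 and Emcn from -0.09 to -0.0059, with no change of sign. Array weights gave 0.046 for Vegfa and -0.076 for Pdgfb, and median centring 0.0086 for Vegfa. The cause was not tested. Pecam1, Flt1, Tek, Tie1, Abcb1a and Rgs5 stayed above 0 under all 17 alternatives.

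With the longest coding transcript as length, chosen after seeing the data, levels were 15.7 for Pecam1, 11.2 for Kdr, 5.61 for Flt1, 10.8 for Tie1, 79.1 for Eng, 5.92 for Abcb1a and 72.8 for Rgs5.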
